A study of Rattus norvegicus and Ovis aries with 113 samples.

Results

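The posterior parietal cortex (PPC) of sheep was compared with 4 other dissections of neocortex from the same brains. PPC was represented by 5 RNA-seq libraries, 1 from each of sheep 687, 688, 690, 694 and 699, out of 113 libraries in the series. They were chosen by their label, and no measured value entered the choice. Each was set against the mean of the frontal cortex (FC), motor cortex (MC), visual cortex (VC) and prefrontal cortex (PC) libraries of the same animal, which made 25 neocortical libraries in all. The animals were Ovis aries males past puberty that had received no treatment. The sources used here do not give their breed, exact age or the place of each dissection within its area. Samples of a given sheep came from the same hemisphere, RNA was extracted with TRIzol, and stranded mRNA libraries were made with a Kapa kit. The series asks which genes link brain and reproduction in mammals, and beyond these areas it holds other sheep brain regions, sheep sperm and rat tissues, which were not analysed here.

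Posterior parietal cortex is association cortex behind the primary somatosensory area, where visual, touch and body position signals are combined for attention and the guidance of movement. Like all neocortex it holds layered excitatory projection neurons and inhibitory interneurons among astrocytes, oligodendrocytes, microglia, which are the resident macrophages of the brain, and a dense network of blood vessels. Neocortical areas share these cell types and differ mainly in their proportions and in graded expression of guidance, adhesion and receptor genes. In bulk tissue, a lower level of a cell type's genes can come from fewer such cells or from less RNA per cell, and these cannot be told apart.

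The PPC libraries held 56.7 to 66.8 M (mega) counts, beside 49.2 to 72.4 M in the other 20. Between the 5 libraries of an area, log-scale levels correlated with a median r of 0.970 in PPC and 0.947 to 0.977 in the other areas, the lowest in MC. Levels below are CPM, counts as a share of the library total after its scaling by trimmed mean of M values (TMM-scaled CPM), and PPC levels are listed in the order of sheep 687, 688, 690, 694 and 699. A set of 37 entries whose names begin with KEF53, with 13 marked p, 2 marked r and 22 marked t, took 25.3% ± 3.69 (SD, n = 5) of the PPC counts and 19.2% ± 5.11 (SD, n = 20) of the others. That share was higher in PPC in 5 of 5 sheep, by 2.76 to 10.8 percentage points. Its part in the results below was not tested.

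Neocortical markers were present in PPC. The vesicular glutamate transporter SLC17A7 stood at 340, 412, 261, 166 and 318 CPM, and TBR1, a transcription factor of deep layer projection neurons, at 46.3, 33.0, 26.2, 18.4 and 41.6 CPM. Among the comparison libraries, the library labelled motor cortex of sheep 687 had unusual levels of some markers. It held TBR1 at 3.12 CPM and CUX2, a superficial layer factor, at 9.77 CPM, against at least 13.4 and 34.4 CPM in the other 19. It also held TTR, the choroid plexus transthyretin, at 740 CPM. The check of TBR1 and CUX2 was made after these values were seen. Other neuronal markers of this library went both ways. Its pan-excitatory list summed to 2957 CPM, the lowest of all libraries compared. Its layer 5 list and its layer 6 and subplate list summed to 433 and 204 CPM, the highest of all. Other libraries stood apart by their markers. Genes of the endothelial list summed to 2365 CPM in the PPC library of sheep 694, against at most 852 CPM in the 20 other libraries. Myelin genes summed to 36799 CPM in the motor cortex library of sheep 699. Pericyte and smooth muscle genes summed to 1773 CPM in the frontal cortex library of sheep 699, the highest of all libraries compared. The main counts of called genes are given with and without these libraries.

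Against the mean of the 4 other areas, PPC had higher levels of some genes of microglia, vessels and cell division and lower levels of some axon guidance, adhesion and neuropeptide receptor genes. The cell division genes were grouped only after their values were seen. CSF1R, the growth factor receptor that microglia need to survive, was 0.72 ± 0.12 (SE) higher on the log2 scale, and SLIT1, a secreted guidance ligand of ROBO receptors, was 1.52 ± 0.34 lower. In edgeR's quasi-likelihood test with the sheep as a block, 133 of 20045 genes (0.664%) passed a Benjamini-Hochberg adjusted p of 0.05 and are referred to as called. Of these, 89 were higher (0.444%) and 44 lower (0.220%) in PPC. The changes were small, with a median absolute log2 fold change of 0.63, and 21 genes (0.105%) also reached 1. For 129 of the 133, PPC lay on the same side of the mean of the other areas in all 5 sheep. Among all genes tested, 1829 (9.12%) were higher and 2290 (11.4%) lower in all 5 sheep, and 4238 (21.1%) had an unadjusted p below 0.05. Other tools divided the directions more evenly. Of the same 20045 genes, DESeq2 called 667 higher and 768 lower, and limma voom called 180 higher and 210 lower. These numbers over all genes tested are the base, each for its own tool, for the counts of list members below. The calls stood close to the threshold, with adjusted p from 0.0368 to 0.04996, and with no sheep block edgeR called 0 genes, with 3645 at an unadjusted p below 0.05. Without sheep 687, edgeR called 53 of the 133 genes again in the same direction. Without sheep 688, 690 or 694, edgeR called 0 genes, and 12 genes were called without sheep 699. Each edgeR count of called genes below for this comparison is thus also 0 without sheep 688, 690 or 694. When single PPC libraries were left out, 0 genes were called without that of sheep 687, 688 or 690, 2 without that of sheep 694 and 487 without that of sheep 699. Without the motor cortex library of sheep 687, 347 genes were called, among them all 133. The counts were 75 without the motor cortex library of sheep 699 and 244 without the frontal cortex library of sheep 699.

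Some microglial genes rose in PPC. Of 15 measured members of the microglia list, 4 were called higher, CSF1R, CX3CR1, ITGAM and TMEM119, and 13 were higher in all 5 sheep. Their median log2 fold change was 0.48, beside 0.01 over all genes tested. CSF1R stood at 97.6, 91.2, 169, 170 and 111 CPM in PPC, and the other 20 libraries ran from 38.3 to 137 CPM with a median of 74.6. Levels in sheep 690 and 694 lay above every other library, and those of the other 3 sheep lay inside the range. The adjusted p of CSF1R in edgeR was 0.0368, which was shared with other genes as the lowest of the comparison. CX3CR1, the fractalkine receptor, stood at 37.6, 33.1, 75.4, 83.1 and 41.9 CPM, against 17.0, 31.2 and 66.8 CPM as the lowest, median and highest of the others. It was higher by 0.67 ± 0.15 on the log2 scale (edgeR adjusted p = 0.0486), and again sheep 690 and 694 lay above the other areas. TMEM119, a membrane protein typical of microglia, rose by 0.58 ± 0.13, and ITGAM, the integrin alpha chain CD11b, by 0.69 ± 0.15. The purine receptor P2RY12 had a fold change of the same size, 0.73 ± 0.17, and did not pass, with an edgeR adjusted p of 0.0507.

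Further called genes are known from macrophages and other leukocytes. CD14, a co-receptor for bacterial lipopolysaccharide, rose by 0.85 ± 0.18, and VSIG4, a complement receptor of tissue macrophages, by 0.72 ± 0.16. SELPLG, the ligand of P-selectin, stood at 31.7, 27.7, 53.5, 37.1 and 29.3 CPM in PPC and at 12.2, 21.6 and 39.4 CPM as the lowest, median and highest of the others. Only sheep 690 lay above that range, and the fold change was 0.68 ± 0.14. TAGAP, a GTPase activating protein of leukocytes, rose by 0.88 ± 0.15, and KLHL6 by 0.69 ± 0.16. Outside the naming rule, and picked after their values were seen, the leukocyte kinase LYN rose by 0.60 ± 0.14, the integrin chain ITGB2 by 0.62 ± 0.13 and complement component C3 by 0.61 ± 0.14. A list of other leukocyte genes, also chosen after values were seen, had 0 of 13 members called by edgeR, 2 higher and 0 lower at an unadjusted p below 0.05, and 1 called by DESeq2. Microglial genes summed to 299 to 571 CPM in PPC and 159 to 476 CPM in the other libraries. PPC had the highest sum of the 5 areas in each sheep but 699, where visual cortex was higher. The list's median was 0.50 against frontal, 0.73 against motor, 0.27 against prefrontal and 0.295 against visual cortex alone. Called microglia members numbered 5 without the motor cortex library of sheep 687, 2 without that of sheep 699 and 0 without the PPC library of sheep 694. The median of the list was 0.49 without that PPC library.

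**Figure D1:**
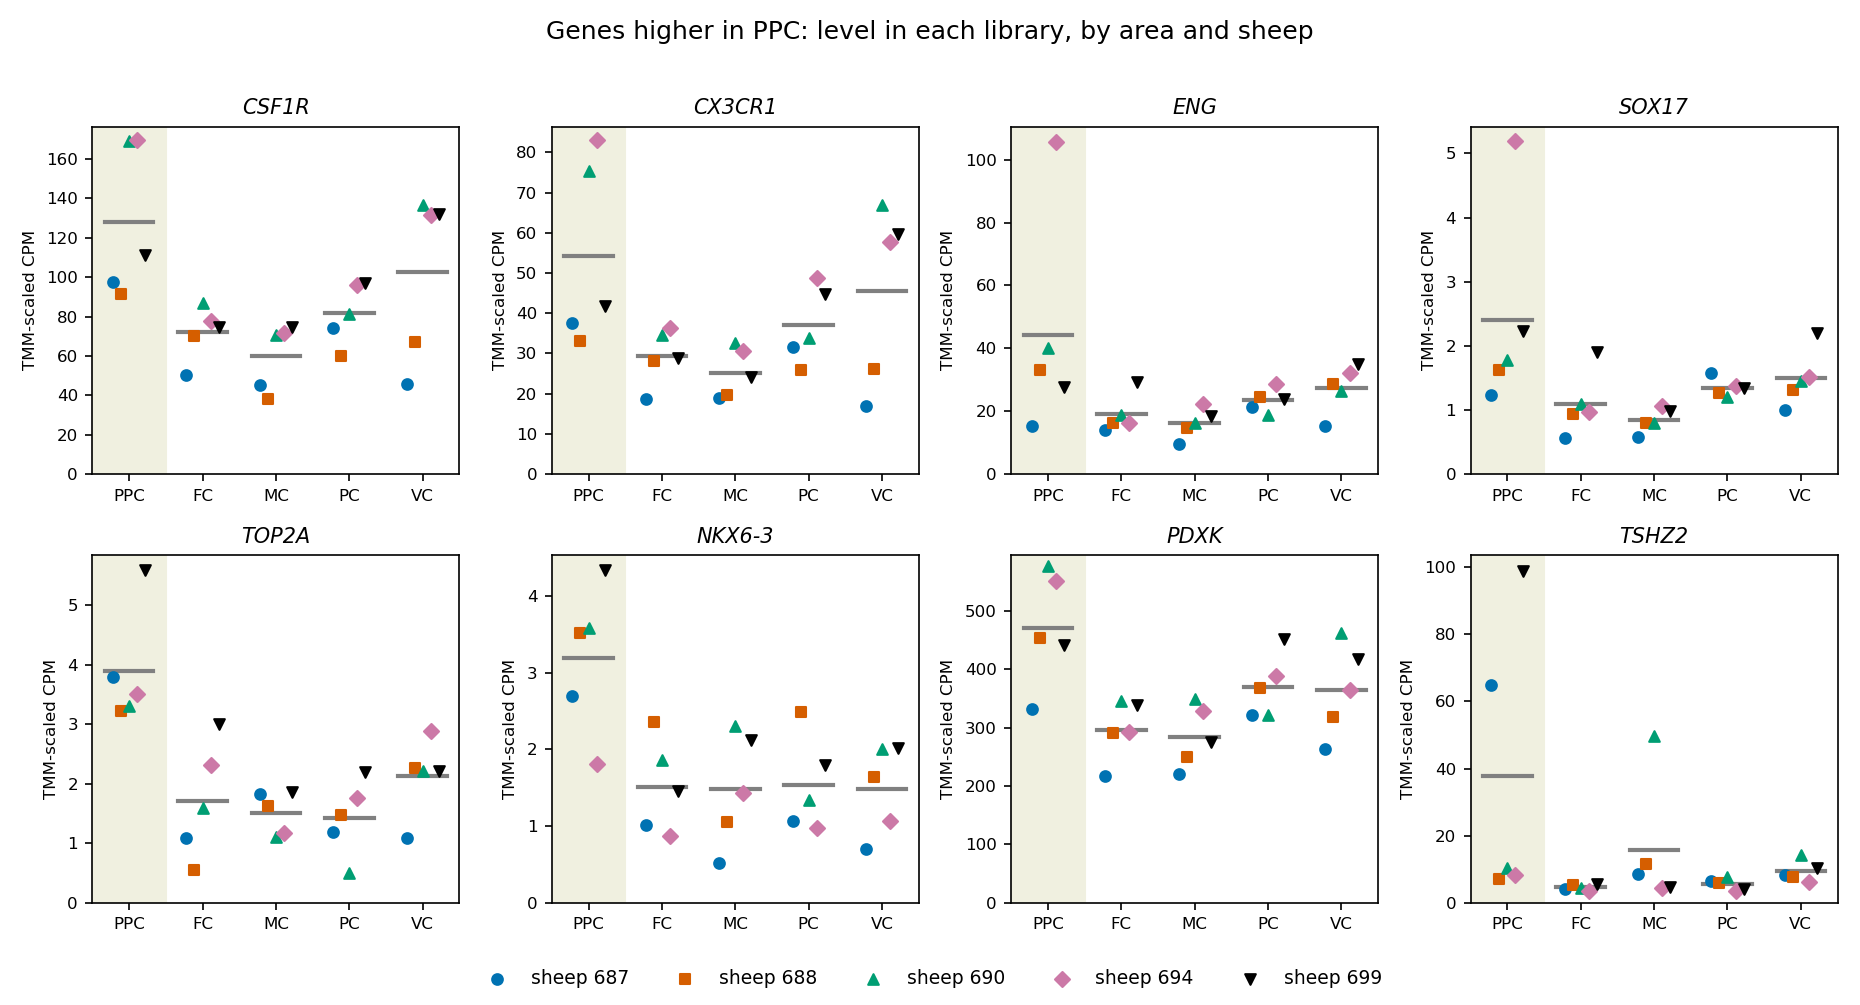
TMM-scaled CPM (vertical axis, from 0) of 8 genes in each of the 25 libraries, by area, with symbols for the 5 sheep and grey bars for the mean of 5 libraries. PPC of sheep 694 stands alone at 106 CPM for ENG and 5.19 CPM for SOX17, all 5 PPC libraries lie above the others for TOP2A, and TSHZ2 is high in PPC of sheep 687 and 699.

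Endothelial genes in PPC were above the mean of the other areas as a list in 4 of 5 sheep, and most of all in sheep 694. As a mean of log2(CPM + 1), PPC differed from the mean of the other areas by 0.15, 0.35, 0.75, 1.88 and -0.09, with sheep 699 the one below 0. All 14 measured members of the endothelial list had positive fold changes, with a median of 0.77, 5 were higher in all 5 sheep, and 1, SOX17, was called. All 14 had an unadjusted p below 0.05, beside 21.1% of all genes tested, and DESeq2 called 10 and limma voom 2. SOX17, a transcription factor of arterial endothelium, stood at 1.23, 1.62, 1.77, 5.19 and 2.23 CPM, against 0.568, 1.15 and 2.196 CPM as the lowest, median and highest of the others. The level in sheep 694 was far above the rest, and that in sheep 699 was just above them. Its log2 fold change was 0.96 ± 0.20 with all libraries (edgeR adjusted p = 0.0482) and 0.57 without the PPC library of sheep 694 (adjusted p = 0.215). ENG, endoglin, a co-receptor for transforming growth factor beta on endothelium, stood at 15.3, 33.0, 40.0, 106 and 27.7 CPM, and the others ran from 9.47 to 34.9 CPM. Sheep 690 and 694 lay above that range. It rose by 0.91 ± 0.20, and the value was 0.50 without the PPC library of sheep 694 (edgeR adjusted p = 0.225). The list's median without that library was 0.29. With all libraries it was 0.96 against frontal, 1.22 against motor, 0.52 against prefrontal and 0.45 against visual cortex alone. By summed CPM, PPC was the highest of the 5 areas in sheep 690 and 694 only. Prefrontal cortex was highest in sheep 687, and visual cortex in sheep 688 and 699.

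Other called genes known from vessels were also highest in PPC of sheep 694. GPR4, a proton-sensing receptor of endothelium, rose by 0.89 ± 0.17, ROBO4, an endothelial roundabout receptor, by 0.79 ± 0.18, and the matrix protein TINAGL1 by 0.89 ± 0.20. Without the PPC library of sheep 694 their values were 0.63, 0.56 and 0.59, and none passed the edgeR test (adjusted p = 0.171, 0.228 and 0.232). PLVAP, a protein of endothelial fenestrae, had a more even level across the PPC libraries. It stood at 9.05, 8.46, 11.0, 11.9 and 9.78 CPM in PPC and at 3.43, 6.06 and 11.9 CPM as the lowest, median and highest of the others, a rise of 0.62 ± 0.11. Its difference from the mean of the other areas was uneven, at 0.20 in sheep 699, below the other 4 sheep. The log2 fold change of PLVAP was 0.60 without the PPC library of sheep 694. UTRN, utrophin, a cytoskeletal linker, rose by 0.77 ± 0.17, and the metal ion transporter SLC39A8 by 0.72 ± 0.16. Without that library the values were 0.65 and 0.52 (edgeR adjusted p = 0.215 and 0.222). Pericyte and meningeal genes were high in the same library, and higher still in the frontal cortex library of sheep 699. As a mean of log2(CPM + 1), the pericyte and smooth muscle list stood at 5.27 in that PPC library and 5.83 in that frontal cortex library. The meninges and fibroblast list stood at 4.81 and 5.24. The pericyte and smooth muscle list exceeded the mean of the other areas by 1.40 in sheep 694 as a mean of log2(CPM + 1), and differed by -0.70 to 0.28 in the other 4 sheep. For the meninges and fibroblast list those values were 1.47, and -0.74 to 0.34. Of 12 and 18 measured members of these 2 lists, 0 were called in edgeR and 0 by DESeq2 or limma voom. At an unadjusted p below 0.05, 4 and 2 were higher, beside 21.1% of all genes tested in either direction. The part of vessel and meningeal content in the other results was not tested.

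Some genes of cell division rose in PPC, from low levels. TOP2A, the topoisomerase that untangles replicated DNA, stood at 3.80, 3.23, 3.32, 3.51 and 5.59 CPM, against 0.505, 1.69 and 3.01 CPM as the lowest, median and highest of the others. Every PPC library lay above all 20 others. PPC lay wholly outside the others for 3 called genes (0.0150% of genes tested), above for TOP2A and BRSK1 and below for WNT2. The log2 fold change of TOP2A was 1.23 ± 0.24 (edgeR adjusted p = 0.0422). A list of 31 cell cycle genes, put together after these values were seen, had 6 of 30 measured members called higher and 0 lower, with a median of 0.40. Over all genes tested, 0.444% were called higher. As the list was chosen with values known, its count cannot serve as a test of these genes as a group. Besides TOP2A they were the proliferation marker MKI67 at 1.09 ± 0.25, the survivin gene BIRC5 at 1.30 ± 0.24, the ribonucleotide reductase subunit RRM2 at 1.08 ± 0.23, the kinetochore gene CENPF at 0.95 ± 0.20 and the helicase gene ERCC6L at 1.56 ± 0.31. MKI67 stood at 1.12, 1.89, 1.52, 2.28 and 2.06 CPM, and the others ran from 0.394 to 1.59 CPM with a median of 0.706. These are low levels, and sheep 687 and 690 lay inside the range of the others. Called members of the list numbered 9 without the motor cortex library of sheep 687 and 1, BIRC5, without the PPC library of sheep 694, where the median was 0.43.

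A few other called genes that rose belong to none of these groups. NKX6-3, a homeobox transcription factor, stood at 2.699, 3.52, 3.58, 1.81 and 4.34 CPM, against 0.513, 1.44 and 2.49 CPM in the others. PPC was its highest area in each of the 5 sheep, and 4 of the 5 PPC libraries exceeded every other library. Its log2 fold change was 1.12 ± 0.19 (edgeR adjusted p = 0.0368). PDXK, pyridoxal kinase, which makes the active form of vitamin B6, stood at 331, 454, 577, 551 and 442 CPM, against 216, 325 and 462 CPM in the others, and rose by 0.52 ± 0.09. BRSK1, a kinase of neuronal polarity picked after its values were seen, rose by 0.46 ± 0.09 from a range of 143 to 315 CPM in the others to 319 to 376 CPM in PPC.

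TSHZ2, a zinc finger transcription factor of some deep layer projection neurons, was called higher on the strength of 2 sheep. It stood at 64.8, 7.06, 10.2, 8.14 and 98.9 CPM in PPC, and the others had a median of 5.92 and a highest level of 49.8 CPM. PPC of sheep 687 and 699 lay above every other library, and PPC of the other 3 sheep lay among them. The log2 fold change was 2.15 ± 0.48 (edgeR adjusted p = 0.0486), it was positive in 3 of 5 sheep, and without the PPC library of sheep 699 it was 1.32 (adjusted p = 0.109). Among the named genes it had the fewest sheep on 1 side.

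Some guidance and adhesion genes fell in PPC. Of 63 members of the cadherin and guidance list, 47 had negative and 16 positive fold changes, and 4 were called lower, SLIT1, CDH18, NTNG1 and EPHA4. In all 5 sheep, 17 were lower and 1 was higher. The median log2 fold change was -0.31. SLIT1 stood at 27.4, 20.7, 26.9, 18.5 and 18.4 CPM in PPC, against 22.8, 66.5 and 126 CPM in the others. PPC was the lowest of the 5 areas in every sheep, and the overlap with the others was limited to the lowest of them. EPHA4, a receptor for ephrins that repels growing axons, stood at 92.8, 170, 78.7, 102 and 72.5 CPM, against 91.5, 198 and 389 CPM. It fell by 0.96 on the log2 scale (SE 0.20, edgeR adjusted p = 0.0453) and was again lowest in PPC in all 5 sheep. CDH18, a neuronal cadherin, had a log2 fold change of -1.03 ± 0.21. NTNG1, netrin-G1, which anchors synaptic contacts through its ligand, stood at 6.52, 8.13, 2.39, 5.14 and 4.61 CPM, against 5.65, 10.4 and 19.9 CPM, and had a log2 fold change of -0.99 ± 0.22. Sheep 688 was the highest of the 5 PPC libraries for EPHA4, CDH18 and NTNG1. Without the motor cortex library of sheep 687, 7 members of the list were called lower, and without the PPC library of sheep 694 0 were, at a median of -0.29.

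**Figure D2:**
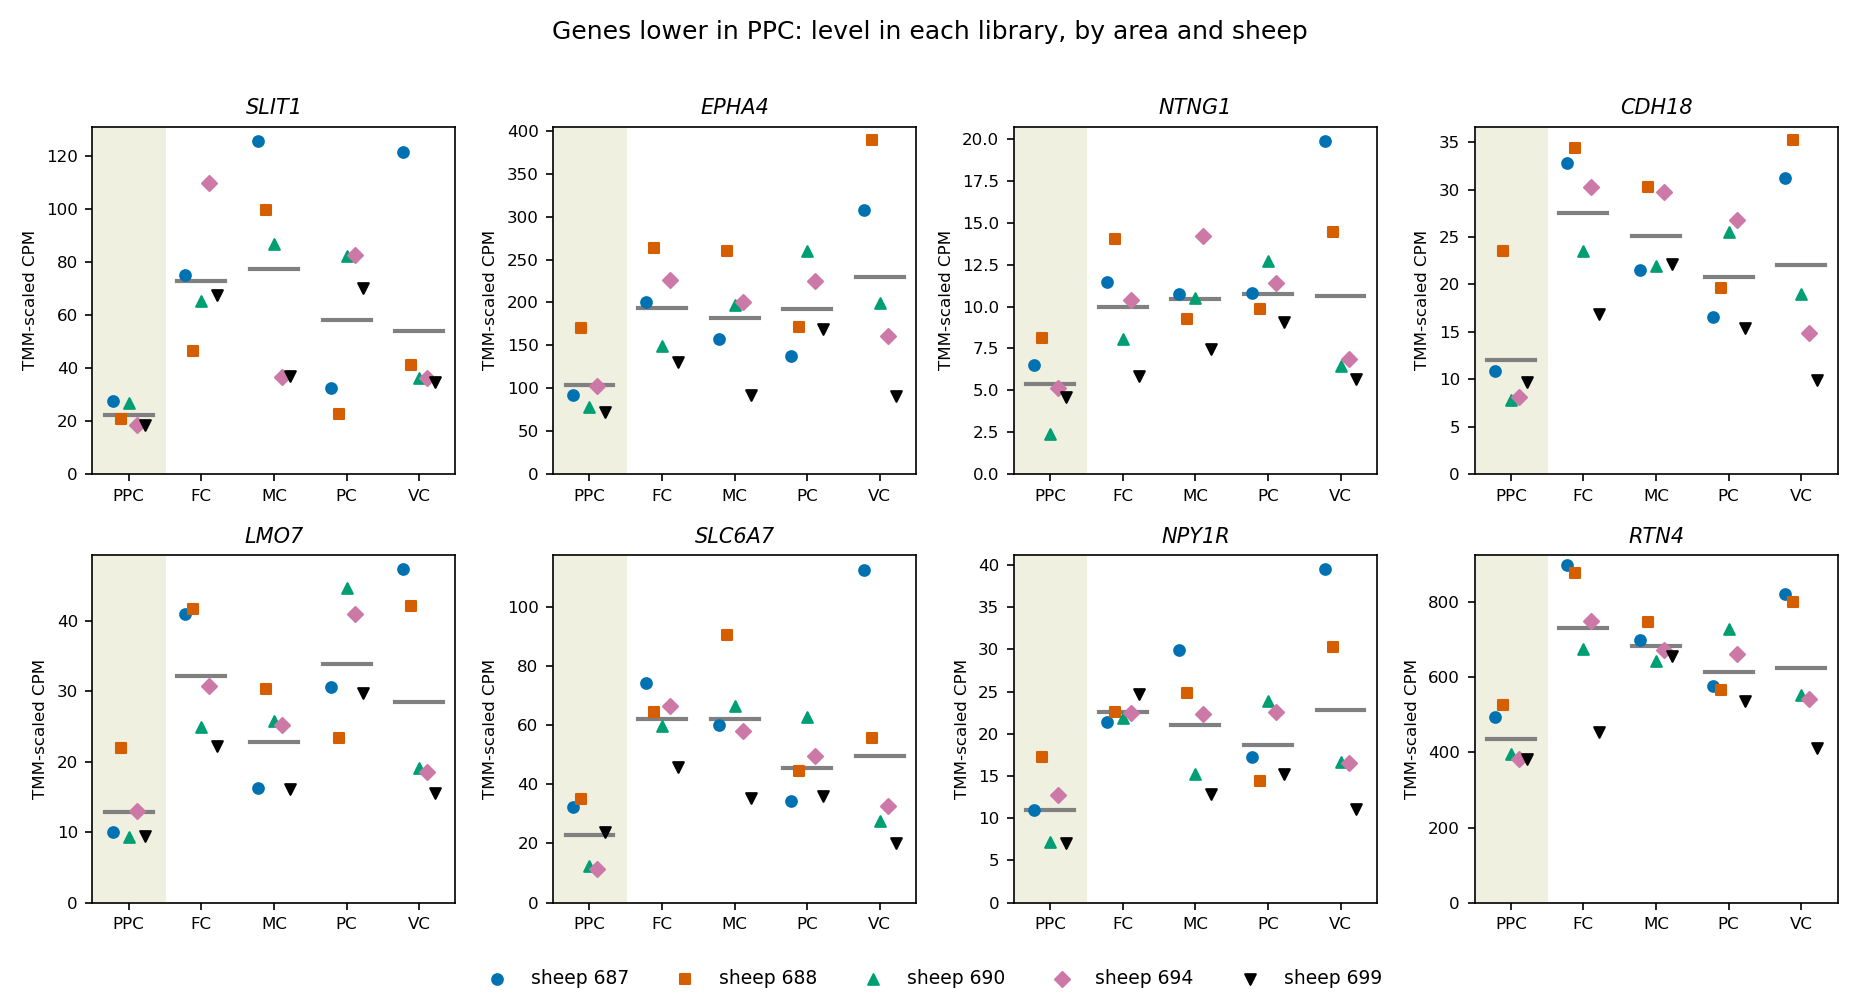
TMM-scaled CPM (vertical axis, from 0) of 8 genes in each of the 25 libraries, by area, with symbols for the 5 sheep and grey bars for the mean of 5 libraries. The mean of PPC is the lowest of the 5 areas for each gene, and the PPC libraries overlap the lowest libraries of the other areas.

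Several called genes that fell act in neuronal signalling. SLC6A7, the brain proline transporter of glutamatergic terminals, stood at 32.4, 34.9, 12.4, 11.5 and 23.9 CPM, against 20.0, 56.7 and 112 CPM in the others. Sheep 690 and 694 lay below every other library, and the log2 fold change was -1.25 ± 0.28 (edgeR adjusted p = 0.0486). The neuropeptide Y receptors NPY1R and NPY5R fell together, with log2 fold changes of -0.97 ± 0.22 and -0.92 ± 0.21. NPY1R stood at 10.9, 17.3, 7.13, 12.8 and 7.06 CPM, against 11.1, 22.1 and 39.5 CPM. The level of NPY itself, a peptide of interneurons, did not pass the test, at -0.33 ± 0.25 (edgeR adjusted p = 0.461). TMEM35A, a chaperone for nicotinic acetylcholine receptors, had a log2 fold change of -0.90 ± 0.20, and ACTN2, an alpha-actinin found at dendritic spines, one of -1.12 ± 0.22. ACTN2 stood at 18.6, 23.0, 12.1, 12.6 and 13.2 CPM, against 14.4, 36.2 and 53.6 CPM, and PPC was its lowest area in all 5 sheep.

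The remaining genes named as lower have varied roles. LMO7, a LIM domain protein of cell junctions and the cytoskeleton, stood at 10.0, 22.0, 9.37, 13.1 and 9.51 CPM, against 15.5, 27.8 and 47.4 CPM in the others. PPC of 4 sheep lay below every other library, with sheep 688 the exception, and the log2 fold change was -1.21 ± 0.23. GCNT4, an enzyme of O-glycan branching, had a log2 fold change of -1.41 ± 0.29, and COCH, the matrix protein cochlin, one of -1.09 ± 0.23. RTN4, which encodes the neurite growth inhibitor Nogo, stood at 495, 527, 396, 383 and 382 CPM, against 411, 668 and 899 CPM, and fell by 0.60 on the log2 scale (SE 0.12). The phosphatase PTPN3 had a log2 fold change of -0.69 ± 0.13 and EPDR1 one of -0.56 ± 0.11. WNT2, a secreted ligand, was at most 0.643 CPM in PPC and at least 0.660 CPM in the other 20 libraries, with a log2 fold change of -1.36 ± 0.31. All PPC levels of WNT2 were low, and it was picked after its values were seen.

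Receptor and channel lists were shifted down in PPC with 0 members called by edgeR in the full set of libraries. The GABA receptor list had the lowest median of the lists, -0.54 over 16 genes, with 9 lower in all 5 sheep. At an unadjusted p below 0.05, 7 were lower and 0 higher, and DESeq2 called 6 lower and limma voom 2. Over all genes tested, 21.1% had such an unadjusted p in either direction. GABRA3, an alpha subunit, stood at 53.6, 50.1, 34.9, 30.9 and 52.0 CPM, against 48.2, 92.8 and 144 CPM in the others, and its log2 fold change of -0.999 ± 0.25 had an edgeR adjusted p of 0.0532. Without the motor cortex library of sheep 687 it was called lower. The glutamate receptor list had a median of -0.31 over 25 genes, with 10 lower and 0 higher at an unadjusted p below 0.05, and DESeq2 called 4 lower and limma voom 1. GRIN2A, an NMDA receptor subunit, had a change on the log2 scale of -0.77 ± 0.21 (edgeR adjusted p = 0.0656), and was below the mean of the other areas in all 5 sheep.

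Potassium channel genes had a median of -0.28 over 51 genes, and 15 were lower in all 5 sheep. At an unadjusted p below 0.05, beside 21.1% of all genes tested, 17 were lower and 1 higher. DESeq2 called 6 lower and 0 higher and limma voom 1 each way. For synaptic vesicle release the median was -0.20 over 36 genes, with 11 lower and 2 higher at an unadjusted p below 0.05, and DESeq2 called 7 lower and 1 higher and limma voom 2 and 1. Neuropeptide genes had a median of -0.43 over 26 genes, 7 lower and 0 higher unadjusted, and 2 called lower by DESeq2, the granin genes CHGB and SCG2. Limma voom called CHGB alone. CHGB stood at 191, 227, 87.3, 80.0 and 155 CPM, against 150, 251 and 449 CPM, and sheep 690 and 694 lay below every other library. The difference did not pass the edgeR test, at -0.82 ± 0.21 (adjusted p = 0.0601).

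The difference in excitatory neuron markers varied from sheep to sheep. The pan-excitatory list had a median of -0.38 over 12 genes with 0 called by edgeR, 4 lower and 1 higher at an unadjusted p below 0.05, 3 called lower by DESeq2 and 1 by limma voom. As a mean of log2(CPM + 1), PPC differed from the mean of the other areas by 0.01, -0.23, -0.84, -1.07 and 0.14. Summed CPM, which the most abundant members dominate, did not show such a difference, with a median of 4604 CPM in PPC and 4600 CPM in the others. In sheep 690 the PPC sum was 4751 CPM, inside the 4409 to 5202 CPM of its other areas. Layer lists had medians of -0.29 for superficial layers, -0.13 for layer 4, -0.12 for layer 5 and -0.40 for layer 6 and subplate, and TSHZ2 was the only member of these 4 lists called by edgeR. At an unadjusted p below 0.05, 3 superficial and 3 layer 6 genes were lower, and layers 4 and 5 had 1 and 2 in each direction. The share of all genes tested with such a p was 21.1%. DESeq2 called 3 layer 6 genes lower and, in layer 5, 2 higher and 1 lower, and limma voom called 0 in the 4 lists. CUX2 differed by -0.17 ± 0.28, and RORB, the layer 4 receptor, by -0.13 ± 0.32, neither beyond its error. Interneuron genes were centred near all genes, with a median of 0.05 over 24 genes, 0 called by any of the 3 tools, and 1 higher and 1 lower at an unadjusted p below 0.05. The transcripts of parvalbumin (PVALB) and VIP had log2 fold changes of 0.21 ± 0.48 and 0.34 ± 0.20, and neither passed the test.

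**Figure D3:**
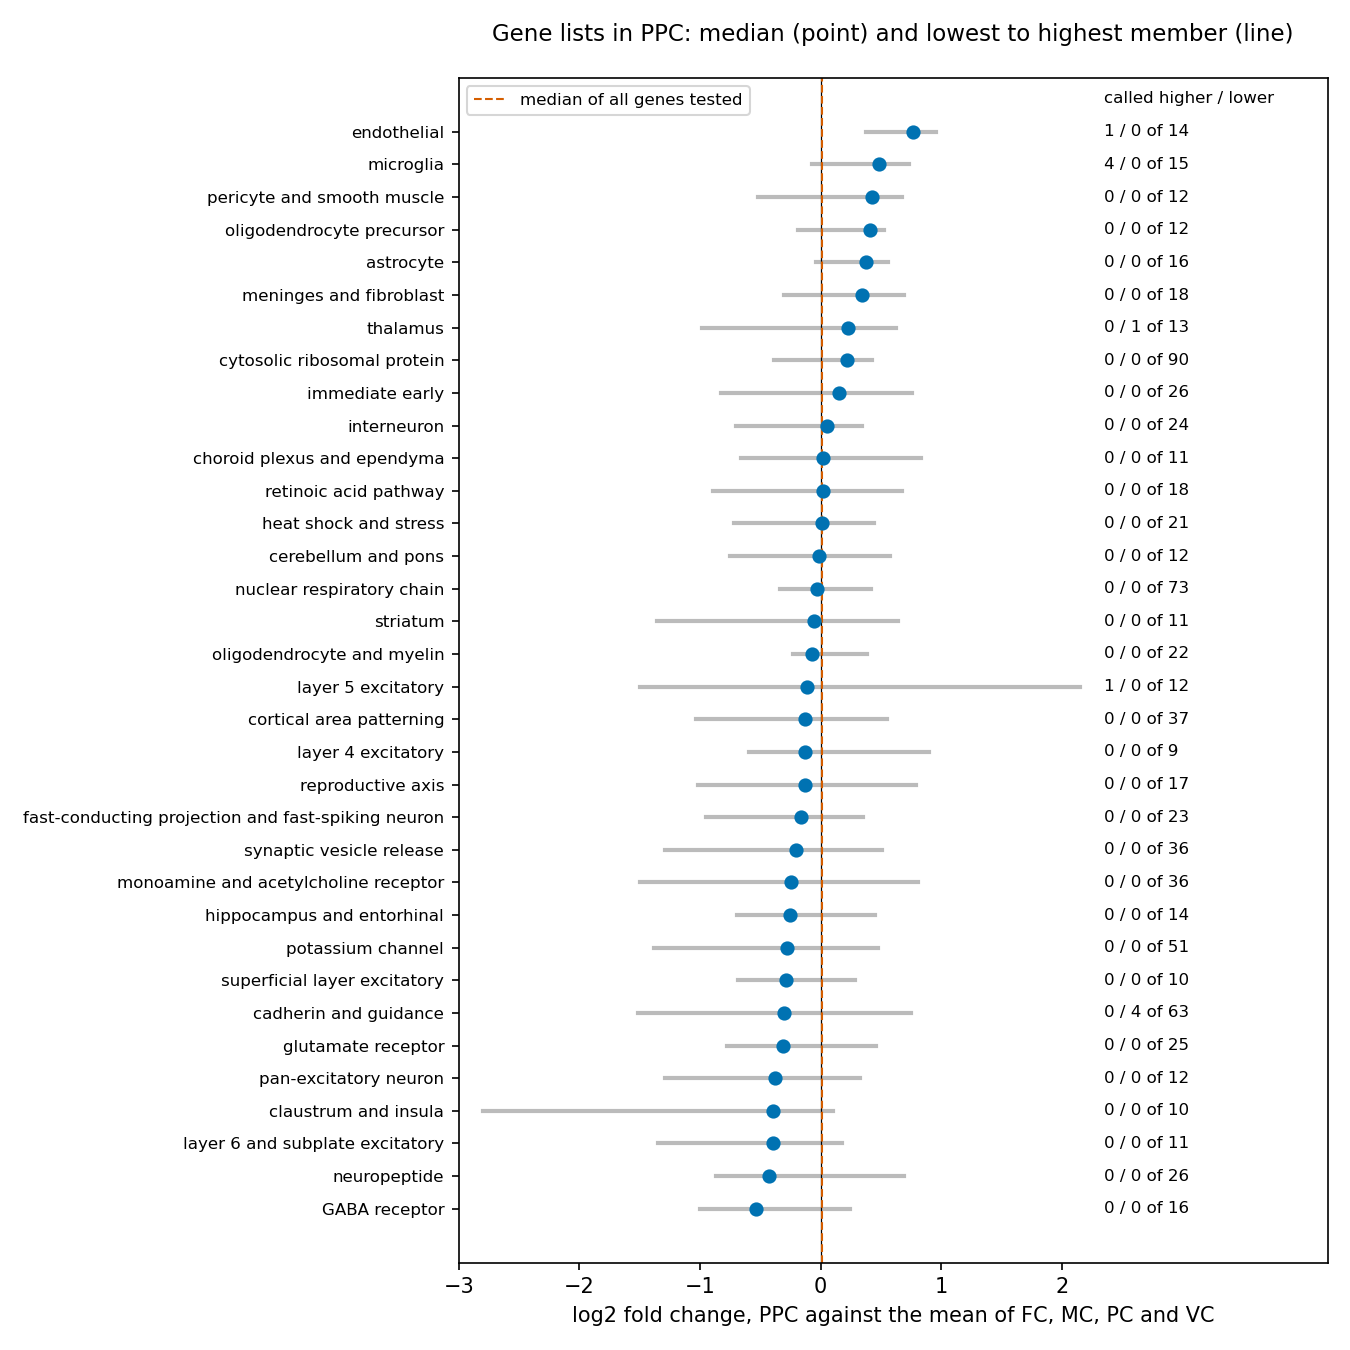
Median log2 fold change in PPC against the mean of the 4 other areas for each gene list with at least 5 tested members, apart from the lists added after values were seen (point) with its lowest and highest member (line), and the number of members called higher and lower in edgeR at the right. Endothelial (0.77) and microglia (0.48) lists lie highest of these and GABA receptor (-0.54) and neuropeptide (-0.43) lists lowest, with the median of all genes at 0.01.

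Among other glia, astrocyte genes were above the mean of the other areas as a list in all 5 sheep, by 0.08 to 0.54 in mean log2(CPM + 1). The median over 16 genes was 0.37, 8 were higher in all 5 sheep, and 0 were called by edgeR or limma voom and 2 by DESeq2. The astrocyte median was 0.53 against frontal, 0.49 against motor, 0.09 against prefrontal and 0.28 against visual cortex alone. At an unadjusted p below 0.05, 6 were higher and 0 lower, beside 21.1% of all genes tested in either direction. GFAP, the astrocyte filament protein, differed by 0.40 ± 0.21 (edgeR adjusted p = 0.294). Oligodendrocyte precursor genes had a median of 0.41 over 12 genes, with 8 higher and 0 lower unadjusted, and 0 were called by edgeR, 2 by DESeq2 and 1 by limma voom. OLIG2, an oligodendrocyte lineage factor, was called higher without the motor cortex library of sheep 687. Myelin genes were centred at -0.07 over 22 genes, with 0 called by any of the 3 tools and 0 at an unadjusted p below 0.05, and their differences in the 5 sheep ran from -0.69 to 0.92. The single areas differed in direction, with a myelin median of -1.04 against motor cortex, 0.70 against prefrontal, -0.06 against frontal and 0.15 against visual cortex. Cytosolic ribosomal protein genes were above the other areas in all 5 sheep as a list, by 0.03 to 0.56, and 49 of 90 genes were higher in all 5 sheep. Their median was 0.21, 0 were called by edgeR or limma voom, 4 were higher and 2 lower at an unadjusted p below 0.05, and DESeq2 called 2 higher and 1 lower. The unadjusted and the DESeq2 counts were both smaller shares than those over all genes tested. The list took symbols beginning with RPL or RPS and so also holds S6 kinase genes such as RPS6KC1.

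**Figure D4:**
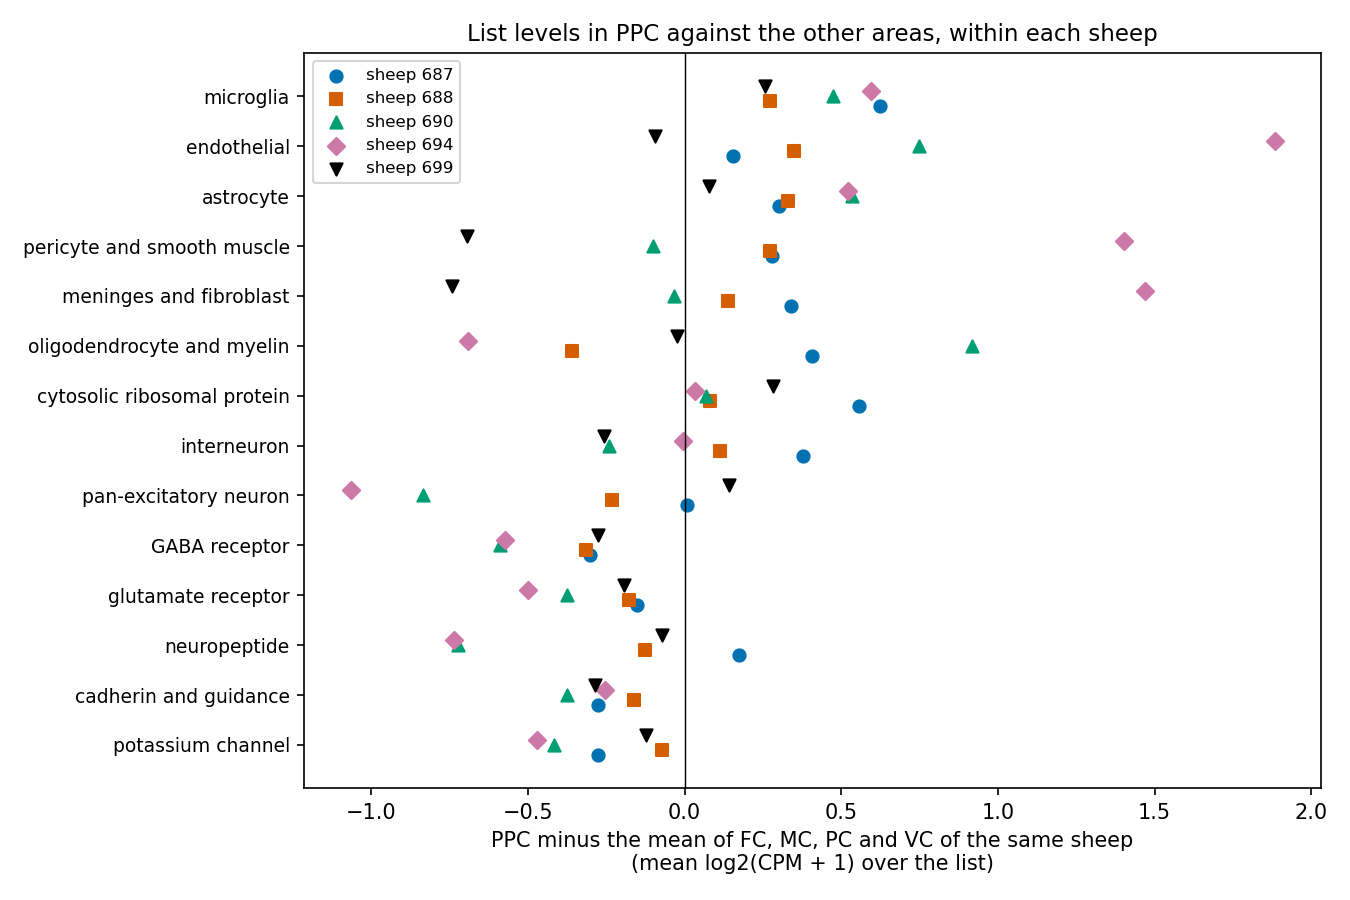
Difference between PPC and the mean of the 4 other areas of the same sheep, in mean log2(CPM + 1) over each list (horizontal axis), 1 symbol per sheep. The microglia list is above 0 and the GABA receptor list below 0 in all 5 sheep, and the endothelial difference of 1.88 in sheep 694 stands apart.

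Lists for area identity and reproduction were also examined. The cortical area patterning list had a median of -0.13 over 37 genes and 0 called by edgeR or limma voom. At an unadjusted p below 0.05, 3 were higher and 5 lower, and DESeq2 called 1 higher and 2 lower. Among all genes tested, 4238 of 20045 (21.1%) had such an unadjusted p. NR2F1, a nuclear receptor that patterns posterior cortex, stood at 98.7, 120, 128, 103 and 101 CPM, inside the 68.1 to 139 CPM of the others, and differed by 0.08 ± 0.13. Reproductive axis genes had a median of -0.13 over 17 genes and 0 called by edgeR, with 2 higher and 1 lower unadjusted, 1 each way in DESeq2, and 1 lower in limma voom. KISS1R, the kisspeptin receptor, stood at 1.84, 2.46, 2.49, 2.81 and 2.58 CPM, against 1.04, 1.63 and 2.39 CPM, a difference of 0.58 ± 0.15 with an edgeR adjusted p of 0.0601. PPC of 4 sheep lay above every other library. ESR2, estrogen receptor beta, stood at 1.63, 2.58, 1.62, 2.72 and 2.06 CPM, against 0.657, 4.58 and 8.34 CPM, a difference of -1.02 ± 0.31 (edgeR adjusted p = 0.0861). It was lower in PPC in all 5 sheep, and was called lower without the motor cortex library of sheep 687.

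PPC was then set against each area alone, in contrasts that share the PPC libraries. Against motor cortex, edgeR called 886 genes (4.42%), with 562 up (2.80%) and 324 down (1.62%) in PPC, and 277 of them (1.38%) changed by at least 1 on the log2 scale. At an unadjusted p below 0.05 there were 4591 (22.9%). Against frontal, prefrontal and visual cortex 0 genes were called by edgeR, with 4355 (21.7%), 1385 (6.91%) and 1720 (8.58%) at an unadjusted p below 0.05. The lowest adjusted p-values were 0.0698, 0.389 and 0.576. The other tools differed most for frontal cortex, where DESeq2 called 1465 genes and limma voom 1691. Against prefrontal cortex DESeq2 called 35 and limma voom 0, and against visual cortex 5 and 0. CSF1R had log2 fold changes of 0.80 against frontal, 1.09 against motor, 0.61 against prefrontal and 0.37 against visual cortex. For NKX6-3 the 4 values were nearly equal, 1.11, 1.15, 1.08 and 1.16. When all motor cortex libraries were left out, 1 gene was called against the mean of the other 3 areas, NKX6-3 at 1.12 (edgeR adjusted p = 0.0289).

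**Figure D5:**
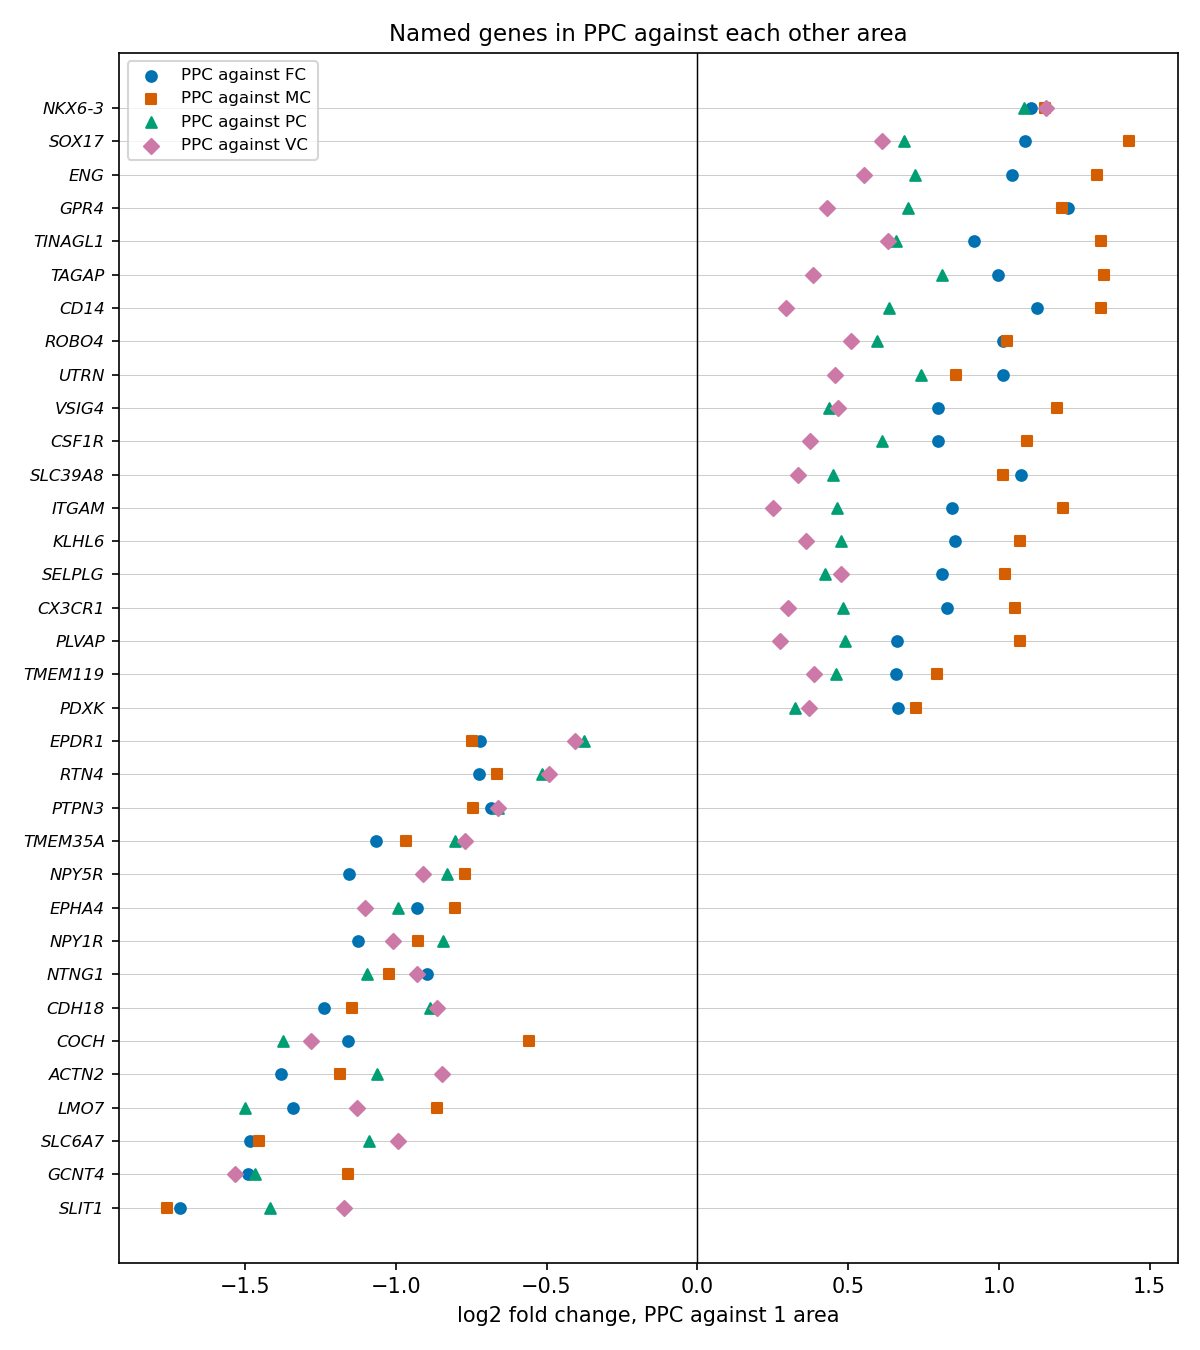
Log2 fold change (horizontal axis) of 34 of the 35 named genes in PPC against each of the 4 other areas alone, 1 symbol per area, with TSHZ2 left out for its wide range. CSF1R lies at 1.09 against motor and 0.37 against visual cortex, the symbols of NKX6-3 lie close together, and the 4 contrasts share the PPC libraries.

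Against motor cortex, further microglial and endothelial genes rose, and some layer 6 and guidance genes fell. Marker lists of other cells were also far from 0 in this contrast. Myelin genes had a median of -1.04, with 21 of 22 negative, and of -0.32 without the motor cortex library of sheep 699. Choroid plexus and ependyma genes had a median of -0.98, with 10 of 11 negative, and of 0.13 without the motor cortex library of sheep 687. Neither list had a member called by edgeR, with 9 and 2 lower at an unadjusted p below 0.05, DESeq2 called 1 and 0, and limma voom 0 and 0. Their part in the other results was not tested. Of 15 microglia genes 7 were called higher and of 14 endothelial genes 8, with medians of 0.73 and 1.22. FLT1, a receptor for vascular endothelial growth factor, stood at 31.2, 58.0, 103, 223 and 76.2 CPM in PPC, and its log2 fold change against motor cortex was 1.41 (edgeR adjusted p = 0.0221), and 1.03 without the PPC library of sheep 694 (adjusted p = 0.0849). Without the PPC library of sheep 694 the endothelial count was 0 and the microglia count 1, CSF1R. Without the motor cortex library of sheep 687 the counts were 3 and 6, and without that of sheep 699 they were 4 and 7. Of 11 layer 6 and subplate genes 3 were called lower in PPC, SEMA3E, SYT6 and NXPH4. SEMA3E, a secreted semaphorin, stood at 10.8, 15.6, 13.9, 13.6 and 6.89 CPM in PPC and reached 109 CPM elsewhere, and its log2 fold change against motor cortex was -2.002 (edgeR adjusted p = 0.0126). It was -1.62 without the motor cortex library of sheep 687 (adjusted p = 0.0282) and -1.98 without that of sheep 699 (adjusted p = 0.0306). Of 63 guidance genes 7 were called lower, SEMA3E among them. The same held for 4 of 51 potassium channel and 4 of 36 synaptic vesicle release genes, SYT6 counting in the latter too. Over all genes tested against motor cortex, 1.62% were called lower and 2.80% higher. Without the motor cortex library of sheep 687, 3 layer 6, 6 guidance, 4 potassium channel and 3 vesicle release genes were called lower. Without that of sheep 699 the numbers were 1, 4, 2 and 1, and without the PPC library of sheep 694 they were 0 in all 4 lists. KISS1R was called higher against motor cortex, by 0.74 (adjusted p = 0.0401), and was not called without the motor cortex library of sheep 687 or of sheep 699 or the PPC library of sheep 694. Over all genes against motor cortex, 615 were called without the motor cortex library of sheep 687 and 432 without that of sheep 699. Without the PPC library of sheep 690 or 694 the counts were 5 and 6, without that of sheep 687 or 688 they were 470 and 589, and without sheep 688, 690 or 694, or with no sheep block, they were 0.

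Under the same rule, the other areas were each set against the mean of the remaining 4, as a base for the count in PPC. With edgeR, 0 genes passed for frontal, 0 for prefrontal and 0 for visual cortex, with 1288 (6.43%), 845 (4.22%) and 480 (2.39%) at an unadjusted p below 0.05. For motor cortex 1 gene was called (0.00499%), SEMA3E at 1.68 ± 0.23 higher (edgeR adjusted p = 0.00937), with 3062 (15.3%) at an unadjusted p below 0.05. DESeq2 called 1, 1, 4 and 596 genes for frontal, prefrontal, visual and motor cortex, and 1435 for PPC. These contrasts share all 25 libraries, and whether the counts of areas differ was not tested.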

How the data were processed

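Polyadenylated RNA was sequenced on a NovaSeq X Plus from 1 library per area and sheep. Per the labels, the authors trimmed reads with Trimmomatic v0.39, aligned them with STAR v2.7.5a to ARS-UI_Ramb_v3.0 and counted them with Rsubread v2.20.0. The deposited values are raw counts per gene, 49.2 to 72.4 M per library. The sources used here do not state strand or multi-mapping settings, so genes with near-identical copies or overlapping neighbours are uncertain. No sheep annotation was used, so genes carry no positions.

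Counts of 25 libraries were fitted in edgeR 4.0.16 under R 4.3.3, with its quasi-likelihood test, TMM factors, filterByExpr by area (20045 of 31304 entries kept), area terms and the sheep as a block. The numbers in the labels name the animals. After area means were removed, libraries of the same sheep had a mean correlation of 0.202 (50 pairs) and of different sheep -0.088 (250 pairs). SEs were derived from the F statistic. There were 0 identical library pairs. The fit was also run on simulated counts. These held no shifts of cell content in single libraries, so that run cannot speak to such shifts.

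Named genes were, in each direction, the 12 largest called fold changes (at least 5 CPM, the same sign in 5 sheep, no placeholder symbol), the 5 smallest p-values, and called list members. Uncalled genes given as examples were picked after their values were seen. Some list members are not reported here by name. Members and lists were chosen with earlier results of these data known. DESeq2 1.42.0, limma 3.58.1 (voom with quality weights), other factors and filters, and leaving out sheep, areas or libraries were alternatives.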

Additional observations from a re-analysis of the deposited data

Results flagged for a closer look

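Over 73 sets of 5 paired differences or PPC values (35 named genes, 37 lists and the KEF53 share), 2 held a sheep separated from the other 4 by more than Dixon's critical value of 0.71, where chance alone gives about 1 in 20. For SOX17 the difference between PPC and the mean of the other areas was 1.48 in sheep 694, above the other 4 sheep. For PLVAP the difference was 0.20 in sheep 699, below the other 4.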

How the results depend on the processing

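Counts of called genes depended strongly on the settings, while each of the 133 genes kept its direction wherever it was tested again. Among the 35 named genes, 322 of 770 combinations of gene and setting kept the call, 448 lost it and 0 reversed. In edgeR with no replicate block, which ignores the pairing by sheep, 0 genes were called for PPC against the mean of the others (lowest adjusted p 0.136) and 0 against motor cortex, and 35 for motor cortex against the rest. DESeq2 with the block called 1435 for PPC, 1465, 2165, 35 and 5 for PPC against frontal, motor, prefrontal and visual cortex, and 1, 596, 1 and 4 for frontal, motor, prefrontal and visual cortex against the rest. Limma voom called 390 for PPC, 1691 and 1355 against frontal and motor cortex, and 1 and 5 for frontal and motor cortex against the rest. With no low-count filter 20 genes were called for PPC and 2 for motor cortex, and with a fold limit of 1 there were 21. Without frontal, motor, prefrontal or visual cortex the PPC count was 0, 1, 1203 or 376. Leaving out a sheep or 1 library (the single libraries were chosen after seeing the data) gave 0 to 487 for PPC and 0 to 1299 against motor cortex. Leaving out a sheep gave 0 to 1 against frontal and 0 to 4 against prefrontal cortex, and 0 to 6 for motor and 0 to 4 for prefrontal cortex against the rest. The cause of these shifts was not tested.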

Other observations

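In PPC, 2 genes of the claustrum and insula list had low levels beside a wide spread elsewhere. SMIM32 stood at 0.12 to 0.20 CPM in the 5 PPC libraries, while the other 20 reached 7.77 CPM, the highest in visual cortex of sheep 687, and the log2 fold change was -2.80 (edgeR adjusted p = 0.0882). LXN, latexin, stood at 0.55 to 1.60 CPM in PPC and reached 15.5 CPM in the same visual cortex library, and the log2 fold change was -1.46 (edgeR adjusted p = 0.228). Motor cortex held 0.52 to 1.47 CPM of it. Both genes were picked after their values were seen, and neither passed the test.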
